A study of Mus musculus with 6 samples.

Results

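The genes described here build and separate mitotic chromosomes: the 8 condensin subunit genes Smc2, Smc4, Ncapg, Ncapg2, Ncapd2, Ncapd3, Ncaph and Ncaph2, with Mki67 and Top2a. They are 10 of the 23420 genes in the count table, taken by symbol, and all 10 passed the filter on low counts that left 10352 genes. The set was chosen by function, with the counts of these genes in anti-PD-1 and untreated libraries already known, so every fold change between the treatments below is a description and supports no claim about the set. The RNA came from regulatory T cells (Tregs) of Foxp3-GFP BALB/c mice, in which cells that express the Treg transcription factor Foxp3 carry GFP. All mice had received 10000 T11 cells, a claudin-low breast tumor line, and tumors were collected at 150 mm2. In the anti-PD-1 group (libraries 4, 5 and 6) mice were given 200 µg of the antibody J43, which binds the inhibitory receptor PD-1, by 2 intraperitoneal injections per week. In the untreated group (libraries 1, 2 and 3) mice carried the same tumors without antibody. No source used here gives the ages of the mice, the number of tumors per library or the duration of dosing. The labels call the libraries separate samples without naming separate animals, so the p-values below measure only how these libraries vary, and that variation may be technical.

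Condensins are ring-shaped complexes that fold chromatin into compact loops when a cell enters mitosis. Smc2 and Smc4 are the ATPase arms that all condensins share. Condensin I adds the kleisin Ncaph and the HEAT-repeat subunits Ncapd2 and Ncapg, and acts mainly after the nuclear envelope breaks down. Condensin II adds the matching subunits Ncaph2, Ncapd3 and Ncapg2, and is nuclear already in interphase. Top2a encodes DNA topoisomerase II alpha, which untangles sister DNA by passing one duplex through another. Mki67 encodes Ki-67, which coats mitotic chromosomes and keeps them apart, and is a common marker of cycling cells. Transcription of many mitotic genes is held down in resting cells and switched on in G2 through promoter elements known as the CHR (cell cycle genes homology region) and the CCAAT box, bound by the MuvB complexes and by NF-Y.

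The promoters are shown because the choice of genes did not use them. In the RefSeq promoter table (assembly GRCm38.p6, 250 bases before to 50 bases after the start of each gene) 9 of the 10 genes had an entry, all but Smc4. Both strands were searched for the CHR letters TTTGAA and TTCGAA, for CCAAT, and for the E2F letters TTTGGCGC, TTTCCCGC, TTTGCCGC and TTTCGCGC. Sequences are printed only for the 5 genes whose windows held both CHR and CCAAT letters. They are stretches of 100 (Ncapg) to 250 (Top2a) bases, so some matches counted below lie outside them. They are written 5′ to 3′ on the strand of the gene and end at the base before the RefSeq start. Capitals mark CHR and CCAAT letters on either strand.
Mki67, chr7:135716380-135716529, minus strand: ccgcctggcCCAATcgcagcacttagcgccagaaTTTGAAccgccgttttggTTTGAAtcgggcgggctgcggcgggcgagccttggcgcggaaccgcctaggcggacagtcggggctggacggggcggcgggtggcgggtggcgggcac
Top2a, chr11:99024190-99024439, minus strand: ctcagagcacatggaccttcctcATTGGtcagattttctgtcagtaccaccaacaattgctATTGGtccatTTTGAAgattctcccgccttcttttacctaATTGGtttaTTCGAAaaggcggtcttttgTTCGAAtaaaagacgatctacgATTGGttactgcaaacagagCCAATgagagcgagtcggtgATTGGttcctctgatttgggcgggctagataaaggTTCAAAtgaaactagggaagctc
Smc2, chr4:52439071-52439220, plus strand: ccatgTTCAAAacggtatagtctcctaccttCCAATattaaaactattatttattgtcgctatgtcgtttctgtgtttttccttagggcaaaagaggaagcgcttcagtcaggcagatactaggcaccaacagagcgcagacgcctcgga
Ncapg, chr5:45669825-45669924, plus strand: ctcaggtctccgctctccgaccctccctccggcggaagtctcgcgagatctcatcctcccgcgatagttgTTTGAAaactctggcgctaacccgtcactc
Ncapd2, chr6:125191587-125191736, minus strand: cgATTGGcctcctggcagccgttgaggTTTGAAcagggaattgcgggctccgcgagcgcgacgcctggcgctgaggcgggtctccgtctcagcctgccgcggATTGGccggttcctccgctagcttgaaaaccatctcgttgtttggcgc

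CHR letters were in 7 of the 9 promoters, against 19.2% of the 32851 promoters in the table. CCAAT was in 5 of the 9, against 37.4% of all promoters, and the same 5 genes (Mki67, Top2a, Smc2, Ncapg and Ncapd2) held both elements, against 7.53% of all promoters. The Mki67 promoter held TTTGAA with its first base at -116 and again at -98, counted back from the start, with CCAAT letters at -188, -166 and -141. The Top2a promoter held the most, with 4 CHR matches and 6 CCAAT matches. Ncapg2 had a single TTTGAA at -18 and no CCAAT, and Ncaph2 a single TTCGAA at -22. The annotated start of Ncapg2 in the deposited table lies 34 bases before the RefSeq start, so this match is upstream in RefSeq and inside the first exon of the deposited annotation. E2F letters were in 3 promoters (Ncapg, Ncapg2 and Ncapd2), against 2.27% of all promoters. None of the 3 elements was found in the window of Ncapd3 or of Ncaph. The shares for all promoters are given as a background, and a match of letters was not tested as a binding site.

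Libraries held 4766533 to 5219249 counts after anti-PD-1 and 5470816 to 6686774 counts without treatment, so every untreated library was the deeper (two-sided exact permutation test, p = 0.1, the smallest that 3 against 3 libraries allow). The cells were sorted to a purity above 90% by their label. CPM are counts scaled to library size with a TMM factor for each library. Foxp3 averaged 521.9 ± 53.5 CPM after anti-PD-1 and 450.0 ± 11.6 CPM untreated (SD, n = 3 each). Of 35 markers of other cell types, 8 were at 0 in all libraries, among them Krt8 and Krt14 of the 4 epithelial markers and Cdh5 and Kdr of the 3 endothelial ones. The other epithelial markers were present, Epcam at 11.3 to 20.1 CPM after anti-PD-1 and 12.3 to 16.6 CPM untreated, and Krt18 in 4 of 6 libraries at up to 5.23 CPM. The third endothelial marker, Pecam1, stood at 83.6, 123.1 and 89.4 CPM after anti-PD-1, against 73.3, 64.5 and 73.7 CPM untreated, without overlap. The 4 dendritic cell markers summed to 2.68 to 6.45 CPM after anti-PD-1 and to at most 0.337 CPM untreated, also without overlap. For all 35 markers together, the summed level was 181.5 to 301.5 CPM after anti-PD-1, highest in library 5, and 169.7 to 183.4 CPM untreated (exact permutation test, p = 0.3). The 7 Treg markers summed to 5504 to 6249 CPM after anti-PD-1 and to 6484 to 7224 CPM untreated (exact permutation test, p = 0.1). Single Treg markers went both ways. Ctla4 averaged 1270 ± 69.2 CPM after anti-PD-1 and 1688 ± 178.2 CPM untreated, and Ikzf2 1821 ± 124.4 and 2144 ± 190.4 CPM, without overlap. Foxp3 and Cd4 (477.3 ± 16.6 and 422.0 ± 50.3 CPM) were higher after anti-PD-1, also without overlap. The lowest anti-PD-1 and highest untreated libraries were close, at 461.1 against 460.0 CPM for Foxp3 and 467.1 against 458.9 CPM for Cd4. Of all tested genes, 6.44% were lower and 7.18% higher after anti-PD-1 without overlap. Il2ra and Tnfrsf18 had a lower mean and Cd3e a higher one, with overlap. Untreated library 1 stood apart from the other 5, at 2.40 on the first axis of a multidimensional scaling of all genes where the others lay between -0.67 and -0.39. The part of depth, of other cells and of this library in the results below was not tested.

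Per kilobase of exon, Smc4 was by far the most abundant of the 10, and the condensin-specific subunits were the least. Averaged over the 6 libraries, Smc4 reached 182.9 CPM per kilobase (CPM divided by the length of all exons), which is above 97.8% of the tested genes. Top2a followed at 65.7, Mki67 at 49.7 and Smc2 at 27.2 CPM per kilobase. The order Smc4, Top2a, Mki67, Smc2 held in every library for the first 3 steps down. Smc2 was in turn above Ncapd3 in 5 of 6 libraries. The other subunits lay close together, from 15.5 CPM per kilobase for Ncapd3 through 14.0 for Ncapg, 11.1 for Ncapg2, 10.1 for Ncapd2 and 9.19 for Ncaph2 to 8.997 for Ncaph. Neighbours among these 6 kept their order in 3 to 5 of 6 libraries, and their ranges overlapped. The least abundant, Ncaph, was still above 51.2% of the tested genes.

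**Figure D1:**
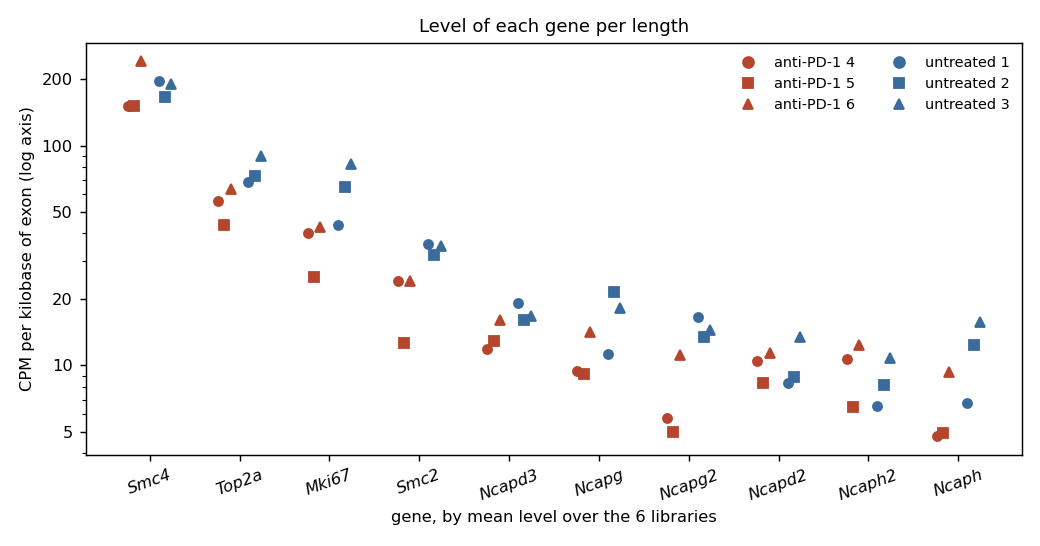
Level of each gene per length in CPM per kilobase of exon (log axis), with 1 point per library, anti-PD-1 left of untreated for each gene. Smc4 lies between 151.3 and 241.2 in all 6 libraries, and the 6 condensin-specific subunits crowd between 4.79 and 21.6.

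Between the treatments, 9 of the 10 genes had a log2 fold change below 0 (anti-PD-1 over untreated), beside 49.9% of all tested genes. Their median was -0.56, and that of all tested genes 0.0016. In 5 genes (Mki67, Top2a, Smc2, Ncapg2 and Ncapd3) every anti-PD-1 library lay below every untreated one in TMM-scaled CPM, which was true of 6.44% of all tested genes. None of the 10 passed edgeR's quasi-likelihood test with Benjamini-Hochberg adjustment over all tested genes. That test called 0.029% of genes, all of them higher after anti-PD-1. At an unadjusted p under 0.05, 6 of the 10 were lower after anti-PD-1, beside 4.08% of all tested genes. DESeq2 called Mki67 and Ncapg2 as lower, and 0.3% of the 4331 genes for which it gave an adjusted p. It gave none for Ncaph and Ncaph2. Limma-voom with quality weights called Mki67, and 0.0386% of genes, in that direction. EdgeR without a filter called Mki67, Smc2 and Ncapg2 as lower, and 0.108% of the 14756 genes then tested, in that direction. These shares are the background of each rule, and since this contrast was known when the genes were chosen, nothing is read from the counts. In sorted cells measured in bulk, fewer cycling cells and less of these RNAs per cell cannot be told apart.

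Mki67 (chr7:135689788-135716379, mm10, minus strand, 14 merged exons) was counted 2136, 1231 and 2075 times in anti-PD-1 libraries 4, 5 and 6, and 2736, 3648 and 4909 times in untreated libraries 1, 2 and 3. Scaled to library size with the TMM factor, these were 404.9, 254.8 and 427.5 CPM after anti-PD-1, against 438.0, 651.9 and 827.9 CPM untreated. The groups did not overlap, but untreated library 1 lay only just above the highest anti-PD-1 library. This rests on the TMM factor of untreated library 1, 0.934 against 1.004 to 1.023 in the others. Divided by total count alone, untreated library 1 lay below anti-PD-1 library 6 for Mki67, so the groups overlapped. Means were 362.4 ± 93.9 CPM after anti-PD-1 and 639.3 ± 195.2 CPM untreated (SD, n = 3 each), a log2 fold change of -0.82 ± 0.22 (SE, 95% interval -1.28 to -0.35, edgeR adjusted p = 0.366). Its adjusted p was 0.0382 by DESeq2 and 0.0270 by limma-voom with quality weights, and ran from 0.000165 to 0.755 over 13 alternative fits, 3 of which called it. Without untreated library 1 the log2 fold change was -1.03 (edgeR adjusted p = 0.0511), and without untreated library 3 it was -0.59 (edgeR adjusted p = 0.411).

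Top2a (chr11:98992947-99024189, minus strand, 36 merged exons) stood at 293.1, 227.2 and 331.3 CPM after anti-PD-1, against 356.5, 380.5 and 468.7 CPM untreated. As for Mki67, library 5 was the lowest and untreated library 3 the highest, with a small gap between the groups. Means were 283.9 ± 52.6 CPM after anti-PD-1 and 401.9 ± 59.1 CPM untreated (SD, n = 3 each), and the log2 fold change was -0.50 ± 0.16 (SE, edgeR adjusted p = 0.449).

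Smc2 and Smc4 are the arms of every condensin. Smc2 (chr4:52439249-52488259, plus strand) stood at 129.5, 67.7 and 128.6 CPM after anti-PD-1, against 189.4, 168.9 and 185.3 CPM untreated. The untreated libraries were close to each other, and all anti-PD-1 libraries lay well below them, library 5 furthest. Its log2 fold change was -0.74 ± 0.20 (SE, edgeR adjusted p = 0.306), and -0.49 without anti-PD-1 library 5. Smc4 (chr3:69004972-69034623, plus strand) stood at 618.0, 617.6 and 984.5 CPM after anti-PD-1, against 803.7, 681.2 and 775.8 CPM untreated. Anti-PD-1 library 6 was the highest of all 6 and the other anti-PD-1 libraries the lowest, so the groups overlapped fully. Its log2 fold change was -0.03 ± 0.16, and its sign changed with the scaling or with a library left out.

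**Figure D2:**
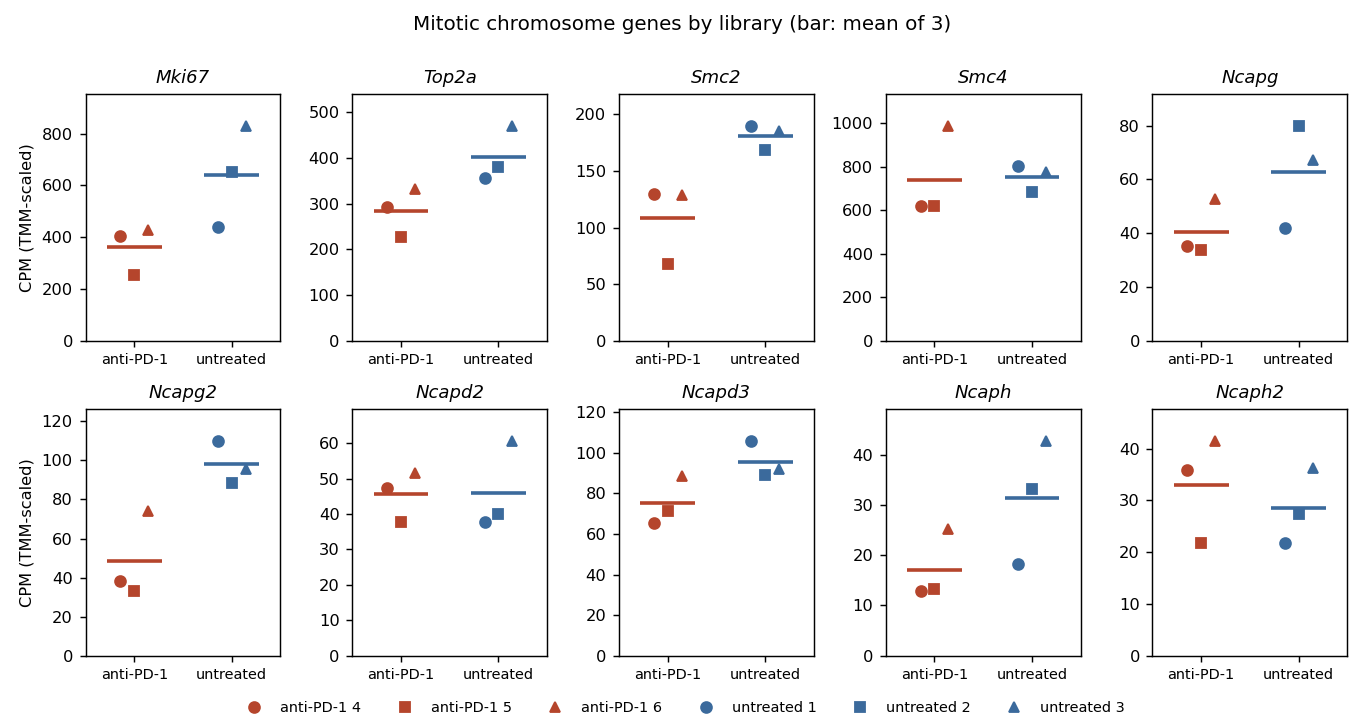
CPM scaled by TMM of each of the 10 genes, with 1 point per library and a bar at the mean of 3, anti-PD-1 left of untreated and each axis starting at 0. In Mki67, Top2a, Smc2, Ncapg2 and Ncapd3 all anti-PD-1 points lie below all untreated points, and in the other 5 genes the groups overlap.

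Of the condensin II subunits, Ncapg2 had the lowest fold change of the 10 genes. Ncapg2 (chr12:116405402-116463531, plus strand) stood at 38.1, 32.9 and 74.0 CPM after anti-PD-1, against 109.8, 88.6 and 95.5 CPM untreated, from 159 to 359 counts after anti-PD-1 and 496 to 686 counts untreated. Anti-PD-1 library 6 lay near the untreated libraries, and the other 2 far below. Means were 48.3 ± 22.4 CPM after anti-PD-1 and 97.97 ± 10.8 CPM untreated (SD, n = 3 each), a log2 fold change of -1.03 ± 0.25 (SE, edgeR adjusted p = 0.161, DESeq2 adjusted p = 0.0427). Without anti-PD-1 library 6 it was -1.46, with an edgeR adjusted p of 0.0241. Without anti-PD-1 library 4 it was -0.88 (edgeR adjusted p = 0.667), and without library 5 -0.82 (edgeR adjusted p = 0.752). Of the 13 alternative fits, 3 called Ncapg2. Ncapd3 (chr9:27030175-27095315, plus strand), the condensin II subunit matching Ncapd2, stood at 65.4, 71.4 and 88.8 CPM after anti-PD-1, against 105.7, 89.0 and 92.3 CPM untreated. The gap between the highest anti-PD-1 and the lowest untreated library was 88.8 against 89.0 CPM, and the log2 fold change was -0.35 ± 0.20 (edgeR adjusted p = 0.663). Ncaph2 (chr15:89355719-89372850, plus strand), the condensin II kleisin, was the only one of the 10 above 0. It stood at 35.8, 21.7 and 41.4 CPM after anti-PD-1, against 21.8, 27.3 and 36.3 CPM untreated, a log2 fold change of 0.22 ± 0.30 with overlapping groups. With a library left out it ran from 0.03 (without anti-PD-1 library 6) to 0.44 (without anti-PD-1 library 5), and it was 0.05 and 0.43 without untreated libraries 1 and 3. Its exons share 829 bases (24.8% of its length) with Sco2 and 535 bases (16.0%) with Tymp on the opposite strand, and counting was done by strand, per the file header.

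The condensin I subunits overlapped between the groups throughout. Ncapg (chr5:45669925-45700547, plus strand) stood at 35.1, 33.9 and 52.8 CPM after anti-PD-1, against 41.8, 79.7 and 67.3 CPM untreated. Untreated library 1 lay among the anti-PD-1 libraries, and the log2 fold change was -0.63 ± 0.26 (edgeR adjusted p = 0.551), and -0.86 without that library. The log2 fold change of Ncapg was -0.42 without untreated library 2. Of its exonic length, 20.8% is shared with Lcorl on the opposite strand. Ncaph (chr2:127103810-127133954, minus strand), the condensin I kleisin and the gene with the fewest counts (64 to 122 after anti-PD-1 and 114 to 253 untreated), stood at 12.9, 13.3 and 25.1 CPM after anti-PD-1, against 18.3, 33.2 and 42.7 CPM untreated. Its log2 fold change was -0.88 ± 0.37, with the widest 95% interval of the 10 (-1.64 to -0.11). It was -1.16 without untreated library 1 and -0.59 without untreated library 3. Ncapd2 (chr6:125168007-125191586, minus strand) stood at 47.4, 37.7 and 51.5 CPM after anti-PD-1, against 37.6, 40.0 and 60.5 CPM untreated. The anti-PD-1 libraries lay within the untreated range, and the log2 fold change of -0.02 ± 0.25 turned above 0 under library size scaling and limma-voom.

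**Figure D3:**
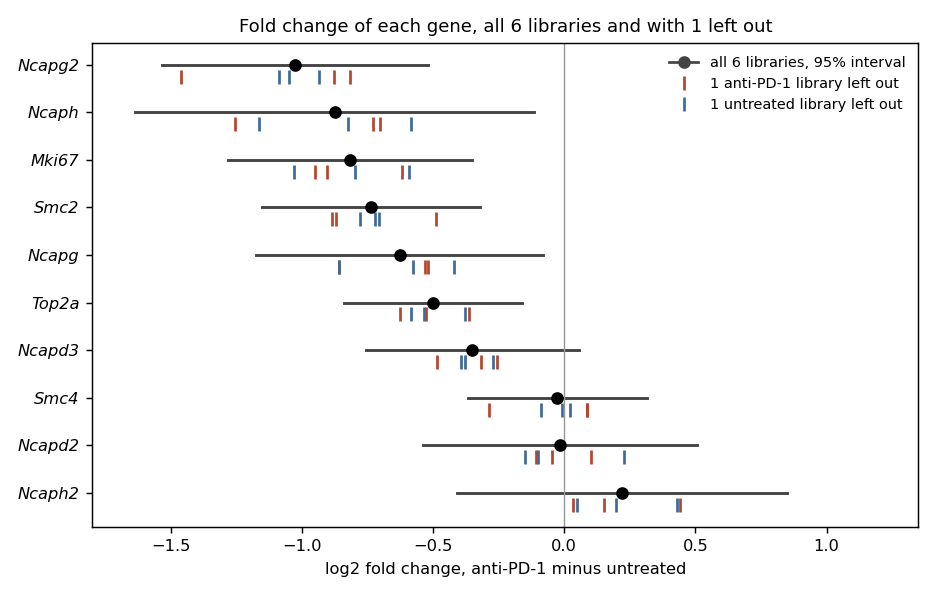
Log2 fold change of each gene (anti-PD-1 over untreated) with its 95% interval from all 6 libraries, and below it the values with 1 library left out. The 7 genes from Ncapg2 to Ncapd3 stay below 0 whichever library is left out, Smc4 and Ncapd2 change sign, and Ncaph2 stays above 0.

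The libraries of each group differed from each other across many of the genes at once. After anti-PD-1, library 5 was the lowest of the 3 for 8 genes and library 6 the highest for 9. Over all 6 libraries, library 5 was the lowest for 7 genes. As a mean of log2 CPM centred on each gene, the 10 genes stood at -0.28, -0.59 and 0.14 in anti-PD-1 libraries 4, 5 and 6, against 0.04, 0.23 and 0.46 in untreated libraries 1, 2 and 3. Anti-PD-1 library 6 therefore lay above untreated library 1, and the groups overlapped on this mean. Library 5 is also the library with the highest sum of other cell type markers (301.5 CPM). Pecam1 alone made up 123.1 CPM of that sum, and the endothelial markers Cdh5 and Kdr were at 0 in all libraries. CD8 T cell markers summed to 51.1 CPM in library 5, against 11.05 to 31.1 CPM in the others. The B cell (19.0 CPM), fibroblast (51.1 CPM), erythroid (4.14 CPM) and neutrophil (0.207 CPM) sums were also highest in library 5. Those of NK cells, macrophages, dendritic cells and epithelium were not. Whether the sum of all 35 markers is tied to the low values of library 5 was not tested. Untreated library 1 was the lowest untreated library for 6 genes, among them Mki67, Top2a and the condensin I subunits, and the highest for 4 (Smc2, Smc4, Ncapg2 and Ncapd3). Without untreated library 1, 7 of the genes did not overlap between the groups, and without anti-PD-1 library 6, 8 did not, beside 11.4% and 11.9% of all tested genes.

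**Figure D4:**
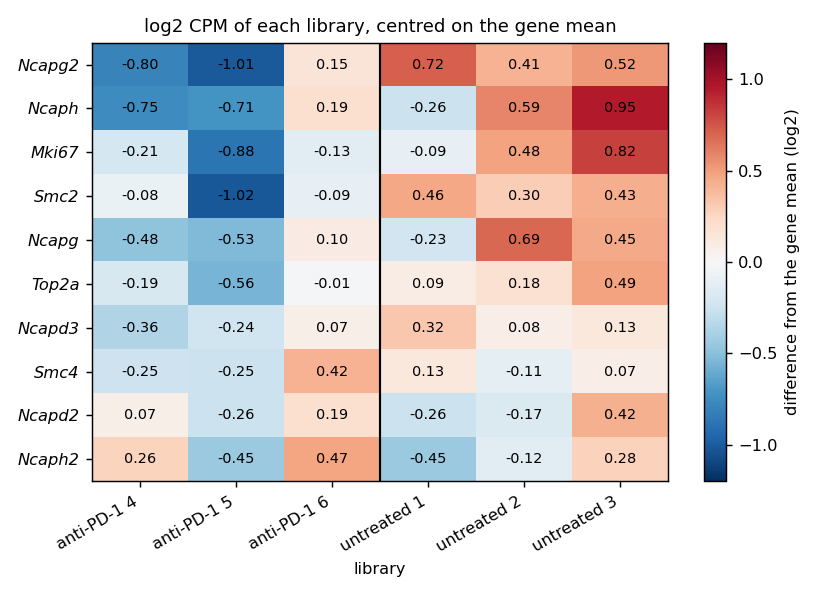
Log2 CPM of each gene in each library as the difference from the mean of that gene over 6 libraries, genes ordered by fold change, anti-PD-1 libraries left of the line. Anti-PD-1 library 5 is below 0 for all 10 genes, and untreated library 3 is above 0 for all 10.

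Top2a followed the mean profile of the set most closely, with a root mean squared difference of 0.079 (log2), and Ncapg2 least closely (0.395). Outside the set, the tested genes of at least 20 CPM whose profile over the 6 libraries was most like that mean were Slc35b3, Arl2bp, Tipin, Rps15a-ps6, Myl6, Gtf3c3, Ect2 and Rfc1, at differences of 0.084 to 0.137, where the median over the 5510 genes compared was 0.422. The closest, Slc35b3, averaged 21.19 CPM after anti-PD-1 and 31.44 CPM untreated (n = 3 each). In the same order of groups, Arl2bp averaged 56.12 and 69.38 CPM and Rps15a-ps6 53.59 and 68.48 CPM. Myl6 averaged 55.56 and 77.04 CPM, and Gtf3c3 22.13 and 27.96 CPM. By likeness, Tipin, Ect2 and Rfc1 ranked 3, 7 and 8 of these 8 genes, and only Ect2 was in the lists counted below. Tipin, a replication fork protection protein, stood at 21.8, 19.0 and 28.2 CPM after anti-PD-1, against 33.3, 30.2 and 37.4 CPM untreated. Ect2, an exchange factor of cytokinesis, stood at 22.8, 18.0 and 32.4 CPM after anti-PD-1, against 27.7, 41.6 and 42.8 CPM untreated. Rfc1, the large subunit of the clamp loader, averaged 37.6 ± 7.5 CPM after anti-PD-1 and 55.5 ± 3.9 CPM untreated (SD, n = 3 each). These likenesses describe 6 libraries and carry no test.

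Within each library, the 3 subunits that match between condensin I and condensin II, and the shared arms Smc4 and Smc2, were compared as ratios of counts per kilobase, with a two-sided exact sign-flip permutation test over the 6 libraries for each of 4 pairs. Smc4 exceeded Smc2 in 6 of 6 libraries, by a mean log2 ratio of 2.81 ± 0.51 (SD, n = 6), or 7.0-fold (exact p = 0.0312, adjusted over 4 pairs 0.0625). Ncapd2 was below Ncapd3 in 6 of 6 libraries, at a mean log2 ratio of -0.62 ± 0.37, or 0.652-fold (exact p = 0.0312, adjusted 0.0625). That p is the smallest 6 libraries allow, and neither pair passed 0.05 after adjustment. Ncapg was above Ncapg2 in 5 of 6 libraries (mean log2 ratio 0.40 ± 0.52, exact p = 0.125, adjusted 0.167). Ncaph was above Ncaph2 in 3 of 6 libraries (mean log2 ratio -0.13 ± 0.67, exact p = 0.719). The ratios assume that every exon of a gene is in its RNA, and without division by length the mean log2 ratio was -0.44 for both Ncapg over Ncapg2 and Ncaph over Ncaph2.

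Split by treatment, these ratios give the fold changes above within a library, where depth cancels. The log2 ratio of Smc4 over Smc2 was 2.64, 3.57 and 3.32 in the anti-PD-1 libraries, against 2.47, 2.39 and 2.45 in the untreated ones. All anti-PD-1 ratios were above all untreated ones. The log2 ratio of Ncaph over Ncaph2 was -1.16, -0.40 and -0.41 after anti-PD-1, against 0.06, 0.59 and 0.55 untreated. Per kilobase, Ncaph was the lower of the kleisins in every anti-PD-1 library and the higher in every untreated one, while in counts not divided by length it was also the lower in untreated library 1 (114 against 136 counts of Ncaph2). The ratios of Ncapg over Ncapg2 and of Ncapd2 over Ncapd3 overlapped between the groups. Summed, the subunits found only in condensin I reached 27.4 ± 6.7 CPM per kilobase after anti-PD-1 and 38.9 ± 11.1 untreated, and those found only in condensin II 30.9 ± 7.9 after anti-PD-1 and 40.7 ± 2.6 untreated (SD, n = 3 each). Both sums overlapped between the groups, and these differences were not tested.

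**Figure D5:**
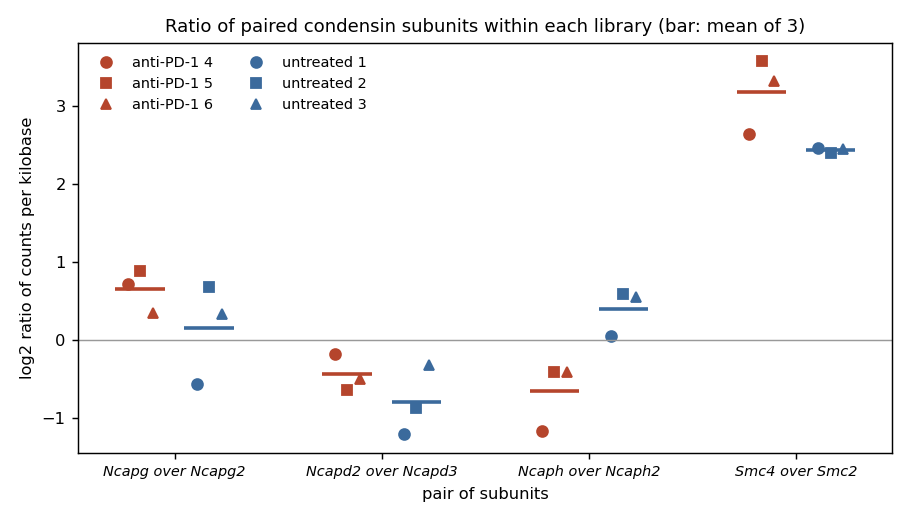
Log2 ratio of counts per kilobase for 4 pairs of condensin subunits, with 1 point per library and a bar at the mean of 3, anti-PD-1 left of untreated. Smc4 over Smc2 lies above 0 and Ncapd2 over Ncapd3 below 0 in all 6 libraries, and Ncaph over Ncaph2 is below 0 in the anti-PD-1 libraries and above 0 in the untreated ones.

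Genes that work beside these 10 were counted from lists chosen with earlier results of these data known, and none of their 108 tested members passed edgeR's test over all genes. At an unadjusted p under 0.05, 23 of them were lower after anti-PD-1 and 1 higher, beside 4.08% and 4.23% of all tested genes. DESeq2 called 1 (Rad21), but gave no adjusted p for some of them, among them Cdk1 and Ndc80. Of 13 tested regulators of condensin, 10 lay below 0 (beside 49.9% of all tested genes) with a median log2 fold change of -0.28, and 2 did not overlap between the groups (beside 6.44% of all tested genes). The median was -0.49 without anti-PD-1 library 6, -0.44 without untreated library 1 and -0.19 without untreated library 3. The 2 that did not overlap were Incenp, the scaffold of the chromosomal passenger complex (54.3 ± 11.1 CPM after anti-PD-1, 80.0 ± 15.5 CPM untreated, log2 fold change -0.56 ± 0.22), and the cyclin gene Ccnb1 (9.84 ± 0.53 CPM after anti-PD-1, 15.8 ± 6.1 CPM untreated, -0.68 ± 0.43). Cdk1, the mitotic kinase that phosphorylates condensin, stood at 5.50, 2.90 and 16.9 CPM after anti-PD-1, against 6.88, 24.7 and 21.1 CPM untreated, with overlap. Kif4, a chromosome-bound kinesin that works with condensin I, had a log2 fold change of -0.54 ± 0.39, also with overlap.

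Cohesin holds sister chromatids together and is built on Smc arms of its own. Of 13 tested cohesin and SMC5/6 genes, 10 lay below 0 (beside 49.9% of all tested genes), with a median of -0.21, and 4 did not overlap between the groups (beside 6.44% of all tested genes). The median was -0.11 without untreated library 1. Rad21, the cohesin kleisin, stood at 298.8, 325.5 and 367.2 CPM after anti-PD-1, against 514.9, 462.3 and 438.8 CPM untreated, a log2 fold change of -0.52 ± 0.15. Its adjusted p was 0.366 by edgeR and 0.0493 by DESeq2, and over the 13 alternative fits 1 called it (range 0.0493 to 0.786). The cohesin arms Smc3 and Smc1a had log2 fold changes of -0.38 ± 0.16 and -0.34 ± 0.16 with no overlap. Esco2, the S phase acetyltransferase of cohesin, had one of -1.06 ± 0.40 with overlap.

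Of the 4 other topoisomerases, 2 lay below 0 (Top2b and Top1, at -0.21 ± 0.15 and -0.22 ± 0.17), and their difference from Top2a was not tested. The median of the 4 was 0.13, with 0.0368 when anti-PD-1 library 4 was left out, 0.245 when library 6 was and 0.24 when untreated library 1 was. Top2b, the paralog that is present in resting cells, averaged 517.4 ± 27.7 CPM after anti-PD-1 and 599.0 ± 115.9 CPM untreated, and Top1 336.7 ± 34.5 CPM after anti-PD-1 and 391.1 ± 98.8 CPM untreated (SD, n = 3 each), both with overlap. Top3b stood at 25.4, 25.3 and 27.4 CPM after anti-PD-1, against 8.81, 12.9 and 16.7 CPM untreated, a log2 fold change of 1.03 ± 0.35 (edgeR adjusted p = 0.460). Top3a, at 0.47 ± 0.39, was the other of these 4 genes with every anti-PD-1 library above every untreated one, which was true of 7.18% of all tested genes. Its lowest anti-PD-1 library stood at 11.95 CPM, only just above its highest untreated one at 11.85 CPM.

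Of 28 tested mitosis genes outside the set, 24 lay below 0 (beside 49.9% of all tested genes), with a median log2 fold change of -0.59, and 8 did not overlap between the groups (beside 6.44% of all tested genes). Ndc80, which links kinetochores to microtubules, stood at 7.58, 8.69 and 13.2 CPM after anti-PD-1, against 41.3, 15.01 and 29.3 CPM untreated (log2 fold change -1.56 ± 0.42, edgeR adjusted p = 0.290, called by edgeR without a filter at 0.0189). The kinetochore gene Cenpf (-0.66 ± 0.22), the central spindle kinesin Kif23 (-0.68 ± 0.22) and the checkpoint kinase Bub1 (-0.98 ± 0.33) did not overlap either. Of 28 S phase genes, 23 lay below 0 (beside 49.9% of all tested genes), with a median of -0.33, and 5 did not overlap (beside 6.44% of all tested genes). Leaving out anti-PD-1 library 5 brought the median to -0.17, and leaving out library 6 of that group to -0.56. The ribonucleotide reductase subunit Rrm1 (-0.59 ± 0.19), the polymerase alpha subunit Pola1 (-0.58 ± 0.21) and Dtl (-0.76 ± 0.28), a substrate receptor that clears replication licensing factors, were among the 5, and the reductase subunit Rrm2 (-0.70 ± 0.27) overlapped.

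Among 22 genes that regulate mitotic transcription, 13 lay below 0 (beside 49.9% of all tested genes), with a median of -0.07, and 3 did not overlap between the groups (beside 6.44% of all tested genes). The median was -0.11 without untreated library 1 or without untreated library 3. Lin9, a MuvB core subunit, stood at 23.7, 27.1 and 25.8 CPM after anti-PD-1, against 38.1, 41.3 and 43.0 CPM untreated (log2 fold change -0.68 ± 0.27, edgeR adjusted p = 0.532). Rbl1, the pocket protein p107 of the repressor form of MuvB, stood at 104.4, 128.1 and 109.2 CPM after anti-PD-1, against 151.1, 159.0 and 156.0 CPM untreated (-0.45 ± 0.17). E2f1 was the third without overlap, with 4 to 23 counts after anti-PD-1 and 34 to 45 counts untreated, and the repressor E2f8 (-0.63 ± 0.42) overlapped.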

How the data were processed

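Raw counts per gene were deposited for 6 libraries. The authors counted read pairs as fragments, by strand, with featureCounts 1.5.2 and an mm10 annotation, per the file headers. No source used here gives aligner settings or duplicate handling. Libraries came from the NuGEN Ovation SoLo kit, per the labels' protocols. Of 23420 symbols, 27 had become dates and were kept in the totals, and 1 unnamed column was not used. Totals were 4766533 to 6686774 counts.

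In R 4.3.3, edgeR 4.0.16 (filterByExpr, TMM, robust quasi-likelihood test, two-sided, treatment as the only term, Benjamini-Hochberg at 0.05) was fitted on the 10352 genes that passed. CPM are scaled by TMM, and log2 CPM use a prior count of 2. Exon lengths and overlaps come from GENCODE M21 or the deposited table, and promoters from RefSeq. Alternatives, 13 fits in all, were DESeq2 1.42.0, limma-voom (limma 3.58.1) with and without weights, other scalings, no filter, the older edgeR method and leaving out each library. The fits were tested on simulated data. Counts of libraries differed by a chi-square of 9.71 to 30.8 per degree of freedom in every pair, so none was a copy. Composition was compared over 16 measures by exact permutation, none under an adjusted p of 0.4. No measure could pass 0.05, since the smallest p for 3 against 3 libraries is 0.1. Total count and the summed Treg, dendritic cell and endothelial markers were at that smallest p.

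The members and lists were chosen with earlier results of these data known. Genes named are all members, up to 4 per list with the smallest unadjusted p, the 8 of most like profile with at least 20 CPM, and sort markers. Of 161 list entries, 3 matched by synonym and 1 did not match.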

Additional observations from a re-analysis of the deposited data

How the results depend on the processing

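The number of genes called, 3, became 7 with library size scaling, 52 without a filter, 34 by DESeq2, 5 by limma-voom and 12 with quality weights, and 1 to 19 with a library left out (19 without untreated library 1). The members called, 0, became 3 without a filter, 2 by DESeq2 and 1 with quality weights, all lower after anti-PD-1. The shares of all genes called lower were 0.108%, 0.3% and 0.0386% in these fits. With a library left out, 0 to 1 member was called (Ncapg2 without anti-PD-1 library 6, where 5 genes were called in all). Members whose groups did not overlap, 5, were 5 to 8 with a library left out. Beside them, the share of all tested genes rose from 6.44% to between 10.0% and 12.3%. Leaving out a library for this count was an alternative chosen after seeing the data, as was the older edgeR method. Genes called in the pathway lists, 0, became 2 without a filter (Ndc80 and Kif11) and 1 by DESeq2 (Rad21). The median of the other topoisomerases, 0.13, ran from 0.0368 to 0.245 with a library left out. The value of Smc4 turned to 0.00024 with library size scaling and ran from -0.286 to 0.0874 with a library left out, and that of Ncapd2 turned to 0.0095 with library size scaling and 0.0073 by limma-voom and ran from -0.15 to 0.23. The log2 ratio of Ncaph over Ncaph2 ran from -0.274 to 0.0769 with a library left out, and that of Ncapg over Ncapg2 was -0.44 when not divided by length. Differences in composition that changed sign with a library left out were ribosomal protein genes (-0.055 to 0.223 percentage points), the 10 highest genes (-0.271 to 1.04), macrophage markers (-1.93 to 5.77 CPM) and epithelial markers (-2.67 to 1.03 CPM). The causes were not tested. The median of the members stayed between -0.74 and -0.43. With a library left out, the medians of the pathway lists ran from -0.49 to -0.19 for condensin regulators, -0.31 to -0.11 for cohesin and SMC5/6, -0.67 to -0.45 for mitosis genes, -0.56 to -0.17 for S phase genes and -0.11 to -0.05 for regulators of mitotic transcription, and Ncaph2 from 0.03 to 0.44. No paired analysis was possible because the replicate numbers of the groups (4 to 6 and 1 to 3) do not overlap. The lowest counts behind a member were those of Ncaph, 64 to 253.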
